A study of Homo sapiens with 8 samples.

Results

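The genes of the proteasome were followed on arrays of cervical cancer cells in which the receptor IGF2R had been depleted. The set was defined by function as 34 genes for constitutive subunits and their activators. It holds 14 genes of the core particle, 17 of the regulatory particle and 3 of the activators that can take the place of the regulatory particle. A gene counted as measured when a probe set annotated with that gene alone reached a signal of 500 on at least 1 of 8 arrays, and the brightest such probe set by mean signal represented it. On this basis 29 of the 34 genes were measured, among 8961 genes in all. Of the 5 others, PSMC5, PSMD7 and PSMD13 had no probe set listed for them, while PSMA6 and PSME2 lay only on probe sets annotated with a second gene.

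The cell lines were BOKU and SKG-I, both derived from cervical cancer. Each line received by lipofection either siCtrl, a control siRNA, or siIGF2R, which targets IGF2R, and total RNA was taken after 72 h. The siRNA used on the arrays was not specified further in the sources used here. Each of the 4 combinations gave 1 RNA sample, and the same RNA was put on 2 arrays, so the duplicate arrays show technical spread and the 2 lines are the only biological replicates. The values are MAS5 signals, intensities on a linear scale, and a change is the mean log2 signal of the siIGF2R arrays minus that of the siCtrl arrays of the same line. Each change was tested with limma across all probe sets, over both lines and with the line as a block, and an adjusted p under 0.05 was called.

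The proteasome degrades proteins that carry ubiquitin chains. In the core particle, rings of alpha subunits gate the entry to rings of beta subunits, of which PSMB5, PSMB6 and PSMB7 carry the catalytic sites. The regulatory particle binds and unfolds the substrate. Its base contains the ATPases PSMC1 to PSMC6 and ubiquitin receptors, and its lid contains PSMD14, which removes the ubiquitin chain. Subunit genes are known to be transcribed together, in part through NFE2L1 and NFE2L2, which bind antioxidant response elements, and through NF-Y and ETS factors.

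Promoter windows from RefSeq (GRCh38.p14, 250 bases before to 50 bases after a transcription start) were found for 29 of the 34 genes, 35 windows in all. PSMA7, PSMB1, PSMB6, PSMB7 and PSMD4 had none in the table used. The windows of PSMD2, PSMD3 and PSMD8 are shown because these genes had 3 of the 4 largest decreases in signal, and that of PSMB5 because it was the only subunit higher in both lines. Each is written in the direction of its gene. Capitals mark matches on either strand to the core of the antioxidant response element (TGACNNNGC), the NF-Y box (CCAAT) and the ETS core (CCGGAA), and PSMB5 has 2 ETS matches that overlap, one on each strand.
PSMD2, chr3:184298991-184299290, plus strand: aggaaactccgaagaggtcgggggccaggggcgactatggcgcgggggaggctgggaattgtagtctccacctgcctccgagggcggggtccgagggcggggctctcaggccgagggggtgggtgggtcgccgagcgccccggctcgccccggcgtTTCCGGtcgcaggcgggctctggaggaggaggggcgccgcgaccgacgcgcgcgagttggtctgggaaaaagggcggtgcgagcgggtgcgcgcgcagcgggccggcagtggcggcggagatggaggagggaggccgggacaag
PSMD3, chr17:39980557-39980856, plus strand: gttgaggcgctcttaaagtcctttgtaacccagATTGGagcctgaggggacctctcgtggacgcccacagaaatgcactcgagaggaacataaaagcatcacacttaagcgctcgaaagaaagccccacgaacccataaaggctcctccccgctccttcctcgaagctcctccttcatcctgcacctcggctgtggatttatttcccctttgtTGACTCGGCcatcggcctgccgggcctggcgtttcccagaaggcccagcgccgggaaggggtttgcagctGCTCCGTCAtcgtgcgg
PSMD8, chr19:38374321-38374620, plus strand: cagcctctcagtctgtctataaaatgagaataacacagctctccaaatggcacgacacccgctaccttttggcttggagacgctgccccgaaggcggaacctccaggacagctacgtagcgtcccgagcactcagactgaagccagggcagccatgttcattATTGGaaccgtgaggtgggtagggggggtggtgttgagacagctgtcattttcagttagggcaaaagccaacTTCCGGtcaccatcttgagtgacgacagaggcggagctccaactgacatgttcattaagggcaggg
PSMB5, chr14:23034851-23035150, minus strand: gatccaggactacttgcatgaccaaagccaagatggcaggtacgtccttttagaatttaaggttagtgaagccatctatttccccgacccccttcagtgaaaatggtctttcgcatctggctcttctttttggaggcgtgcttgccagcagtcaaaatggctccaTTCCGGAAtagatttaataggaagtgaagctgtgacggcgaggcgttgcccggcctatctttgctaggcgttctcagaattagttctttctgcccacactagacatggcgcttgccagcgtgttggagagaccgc

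PSMD2 and PSMB5 each have a further window at another start, which is not shown. The antioxidant response element core occurred in 9 of the 35 windows (25.7%), against 13.3% of all 35116 windows in the table. The NF-Y box occurred in 16 (45.7%) against 34.6%, and the ETS core in 16 (45.7%) against 17.2%. The GC box (GGGCGG) occurred in 24 (68.6%) against 45%, and the TATA box (TATAAA) in 4 (11.4%) against 11.5%. PSMD3 was the only one of the 4 genes shown with the antioxidant response element core, once before and once after the start. The other 3 genes shown have the ETS core in the window printed. These are matches of letters and say nothing about binding.

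Knockdown was visible on every array. IGF2R had signals of 7288 and 6710 with siCtrl and 641 and 645 with siIGF2R in BOKU, and 4120 and 3838 against 257 and 295 in SKG-I (limma log2 change −3.65, adjusted p = 0.0221). Epithelial keratins KRT8 and KRT18 were at 7282 or more on all arrays, while KRT5 did not exceed 45.9, and EPCAM was at 50.8 or less in BOKU and at 1247 to 1536 in SKG-I. CDH1 did not exceed 3.15 in BOKU and had 143 and 173 with siCtrl against 619 and 652 with siIGF2R in SKG-I. KRT19 had 17112 and 18705 against 14530 and 17644 in BOKU, and 7024 and 7222 against 1968 and 1939 in SKG-I (limma adjusted p = 0.164). The part of these markers in the results was not tested. DCN, LUM, PTPRC, CD3E and CD14 did not exceed 149 on any array, and 1 probe set of COL1A1 reached 1187 to 5684. The first siIGF2R array of BOKU had lower signals than its duplicate among strongly expressed genes. Against the siCtrl mean of the line, the 1792 genes in the 2 brightest of 10 signal classes had a median of −0.15 on this array and −0.03 on its duplicate.

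Most proteasome subunits had lower signals with siIGF2R in both lines, but the decreases were moderate and no single subunit passed the test. The 29 genes had a median change of −0.35 (BOKU) and −0.26 (SKG-I), against 0.03 and −0.03 over all 8961 genes. Signals were lower in both lines for 22 genes (75.9%), compared with 35.7% of all genes, and higher in both lines for PSMB5 alone, compared with 35.7%. In 20 genes (69.0%) both siIGF2R arrays lay below both siCtrl arrays in each line, against 25.2% of all genes. PSMB5 was the only one for which both lay above in each line, against 26.4%. Duplicates differed less for the subunits (standard deviations of 0.065 to 0.143) than over all genes (0.276 to 0.348), so a given change separates their arrays more easily. The share of separated genes was not computed for genes of like signal.

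After adjustment over all probe sets, limma called 0 of the 29 genes lower, against 2.35% of all genes, and 0 higher, against 2.59%. Without adjustment, 15 (51.7%) were lower at p under 0.05, against 13.9% of all genes, and 0 were higher, against 14.4%. This count of 15 was 8 of 29 without the first siIGF2R array of BOKU, against 12.6% of all genes under the same setting, and 7 with quantile normalization, against 14.2%. The methods' t-test on the 4 RNA samples gave 6 lower and 0 higher at its unadjusted threshold, against 3.26% and 2.90% of all genes. After Benjamini-Hochberg adjustment it called 0 subunits and 0% of all genes, so that count says nothing about the subunits. No subunit was 2-fold lower in each line, against 2.31% of all genes, and none was 2-fold higher, against 3.14%. With the 8 arrays taken as separate samples, limma called 12 of 29 lower when the correlation of duplicates was estimated, against 15.4% of all genes, and 20 with a block on the array number, against 23.3%. Both settings count arrays of the same RNA as samples. In these bulk samples, fewer cells with a given RNA and less of that RNA per cell cannot be told apart.

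**Figure D1:**
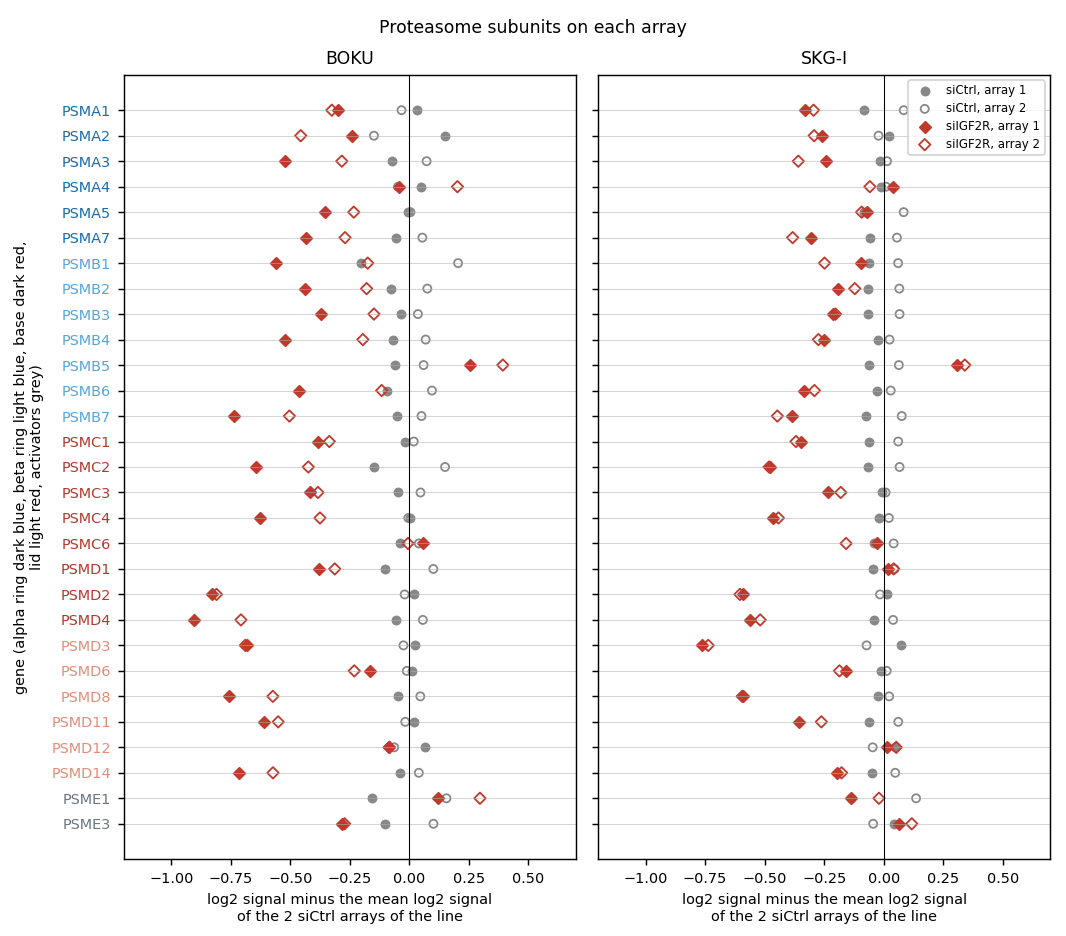
Each row is a measured subunit, ordered by its place in the complex, and each point is 1 array (grey circles siCtrl, red diamonds siIGF2R, filled for the first array and open for the second). The x axis is the log2 signal minus the mean of the 2 siCtrl arrays of the line, and the siIGF2R points lie left of both siCtrl points in both lines for 20 of the 29 genes, with PSMB5 to the right.

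The alpha ring, which forms the outer rings of the core and its gate, had 6 of 7 genes measured. Of these, 5 (83.3%) were lower in both lines, against 35.7% of all genes. PSMA1, PSMA2, PSMA3 and PSMA7 had changes of −0.40 to −0.31 in BOKU and −0.34 to −0.28 in SKG-I. PSMA5 was lower mainly in BOKU (−0.29, against −0.08 in SKG-I). PSMA4 stood apart with 0.08 in BOKU and −0.01 in SKG-I, and its siIGF2R and siCtrl arrays overlapped in both lines. Its mean change was 0.03 with a 95% interval of −0.25 to 0.32.

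The catalytic beta subunits had changes of both signs. PSMB7, which has the trypsin-like activity, had signals of 15416 and 16540 on the siCtrl arrays of BOKU and 9589 and 11260 on its siIGF2R arrays. In SKG-I it had 15750 and 17492 with siCtrl and 12715 and 12177 with siIGF2R. Neither line had overlapping groups, and the signal was 30.2% lower on average (log2 change −0.52 ± 0.12 limma SE, n = 2 lines, limma adjusted p = 0.0748).

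PSMB6, which has the caspase-like activity, had 8959 and 10216 against 6937 and 8826 in BOKU, and 7725 and 8045 against 6255 and 6443 in SKG-I. Its siIGF2R arrays were lower in both lines without overlap. The log2 change was −0.30 ± 0.14 limma SE (n = 2 lines, limma adjusted p = 0.224).

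PSMB5, which has the chymotrypsin-like activity, went the other way. Its signals were 5083 and 5520 with siCtrl and 6313 and 6953 with siIGF2R in BOKU, and 6904 and 7540 against 8929 and 9135 in SKG-I. The siIGF2R arrays were higher in both lines without overlap, with the same change of 0.32 in each (1.25-fold, limma SE 0.14 on the log2 scale, limma adjusted p = 0.21). Its 95% interval of −0.03 to 0.67 reaches 0.

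The other beta subunits, PSMB1, PSMB2, PSMB3 and PSMB4, are structural in the constitutive particle. They had changes of −0.37 to −0.26 in BOKU and −0.26 to −0.16 in SKG-I. PSMB1 overlapped between siRNAs in BOKU. For PSMB2, a further probe set that other transcripts may also bind had changes of 0.13 and 0.09, opposite to the representing one at −0.31 and −0.16.

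Among the measured base genes of the set, the ubiquitin receptor subunits PSMD2 and PSMD4 had the largest changes. PSMD2, the large scaffold subunit that docks ubiquitin-like domains, had 15239 and 14824 on the siCtrl arrays of BOKU and 8464 and 8573 on its siIGF2R arrays. In SKG-I it had 10859 and 10628 against 7122 and 7069. The groups were far apart relative to the duplicates in both lines, and the signal was 38.8% lower on average (log2 change −0.71, 95% interval −1.04 to −0.37). Its adjusted p of 0.0509 from limma was the smallest of all subunits and lay just above the threshold. It ranged from 0.000328 to 1 over the alternatives, and passed in 9 of 23 of them. The values of 0.000328 and 0.000803 came from settings that count arrays of the same RNA as samples.

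PSMD4, a receptor that binds ubiquitin chains directly, had 6711 and 7259 against 3732 and 4274 in BOKU, and 6914 and 7301 against 4808 and 4959 in SKG-I. All siIGF2R arrays were below all siCtrl arrays, by 37.3% on average (log2 change −0.67 ± 0.16 limma SE, n = 2 lines, limma adjusted p = 0.0729). Both other probe sets of PSMD4 were also lower, by −0.80 and −0.76 in BOKU and by −0.68 and −0.40 in SKG-I.

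PSMD1, the other large scaffold subunit of the base, had changes of −0.35 and 0.03 in BOKU and SKG-I, and its further probe set had −0.23 and −0.21. The difference between the lines was not tested.

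Of the ATPases, which unfold the substrate and open the gate, PSMC2 and PSMC4 had the largest changes. PSMC2 had 7084 and 8718 against 5032 and 5855 in BOKU, and 10873 and 11926 against 8178 and 8156 in SKG-I. PSMC4 had 5231 and 5198 against 3375 and 4019 in BOKU, and 5209 and 5367 against 3825 and 3891 in SKG-I. The siIGF2R arrays were lower without overlap for both genes in both lines, by 29.6% for PSMC2 (adjusted p = 0.0902 from limma) and 28.2% for PSMC4 (adjusted p = 0.131). The further probe set of PSMC2 gave a smaller change, −0.24 in BOKU and −0.15 in SKG-I.

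PSMC1 had the same change in both lines (−0.36), and PSMC3 had −0.40 and −0.21. PSMC6 had 0.03 and −0.09 with overlapping arrays, and its average of −0.03 turned to 0.06 with quantile normalization and to 0.09 when the change of genes of like signal was subtracted. The ATPases therefore spanned changes from near 0 to about −0.5 in each line.

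Of the lid subunits, PSMD3 and PSMD8, both structural, had the largest changes. PSMD3 had 4485 and 4333 on the siCtrl arrays of BOKU and 2751 and 2734 on its siIGF2R arrays, and 3600 and 3258 against 2015 and 2054 in SKG-I. Its signal was lower by 39.2% on average, the largest decrease of the 29 genes, and without overlap in either line (log2 change −0.72 ± 0.17 limma SE, n = 2 lines, limma adjusted p = 0.0742). PSMD8 had 7143 and 7613 against 4361 and 4955 in BOKU, and 8603 and 8881 against 5800 and 5790 in SKG-I. It was lower by 35.4%, again without overlap (log2 change −0.63 ± 0.14 limma SE, n = 2 lines, limma adjusted p = 0.0692).

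PSMD11, a structural lid subunit, had 7072 and 6903 against 4572 and 4768 in BOKU, and 5310 and 5779 against 4327 and 4620 in SKG-I. The groups were separate in both lines, with a smaller distance in SKG-I (−0.31) than in BOKU (−0.58). PSMD14, the deubiquitinase of the lid, had the widest gap between the lines among subunits lower in both, with −0.64 in BOKU and −0.19 in SKG-I. PSMD6 had −0.20 and −0.17, and PSMD12 had −0.09 and 0.03. These differences between the lines were not tested.

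The 2 measured activators had changes of both signs. PSME1, a subunit of the activator induced by interferon gamma, had 2031 and 2519 with siCtrl and 2455 and 2778 with siIGF2R in BOKU, and 4495 and 5426 against 4491 and 4870 in SKG-I. The groups overlapped in both lines. PSME3, which forms the nuclear activator, had 2140 and 2462 against 1886 and 1901 in BOKU, and 1114 and 1048 against 1129 and 1172 in SKG-I. It was lower in BOKU and slightly higher in SKG-I, while its 2 further probe sets were lower in both lines (−0.18 and −0.53, and −0.28 and −0.08).

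**Figure D2:**
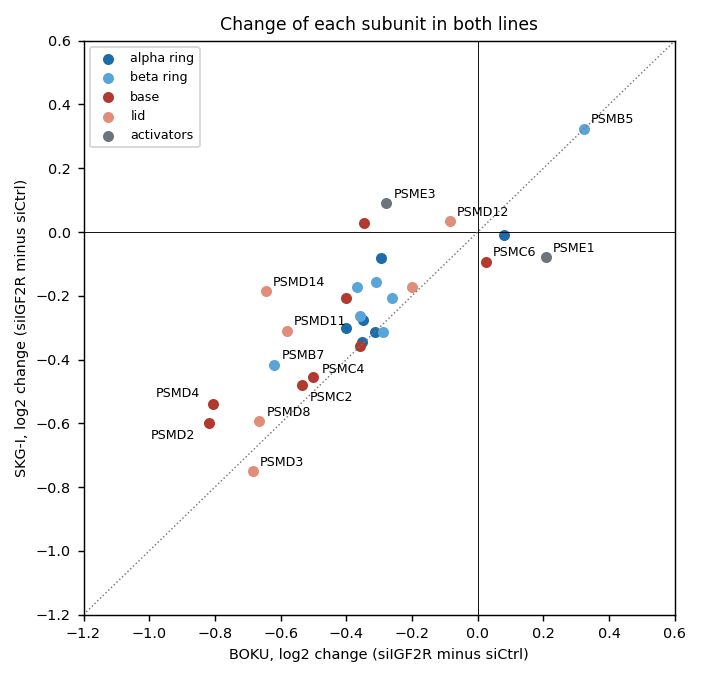
Each point is a measured subunit, with its log2 change in BOKU on the x axis and in SKG-I on the y axis, coloured by place in the complex, and the dotted line marks equal changes. The points run along the diagonal from PSMD3, PSMD2 and PSMD4 at the lower left through a cluster of core subunits near −0.3 to PSMB5 at 0.32 in both lines.

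The order of the subunits was similar in the lines. Across the 29 genes, the changes in BOKU and SKG-I had a Pearson correlation of 0.81 and a Spearman correlation of 0.80, against 0.52 and 0.56 across all 8961 genes. The lines share no array, but genes are not independent replicates, so no p is given. The changes of subunits were also less spread, with standard deviations of 0.28 (BOKU) and 0.23 (SKG-I), against 0.71 and 0.79 over all genes. Differences between duplicate arrays had standard deviations of 0.065 to 0.143 for the subunits and 0.276 to 0.348 for all genes. Bright genes in general changed less widely. In the brightest of 10 signal classes, the quartiles of the change were −0.29 and 0.08 (BOKU) and −0.34 and 0.12 (SKG-I). In the dimmest class they were −0.49 and 0.94, and −0.63 and 0.89. The correlations and standard deviations were not computed over genes of like signal, so they show no trait particular to the subunits.

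The regulatory particle had the larger decreases of the 2 particles. Its 14 measured genes had medians of −0.52 (BOKU) and −0.33 (SKG-I), and 11 (78.6%) were lower in both lines. The 13 measured genes of the core particle had medians of −0.31 and −0.26, and 11 (84.6%) were lower in both lines. Over all genes the share was 35.7%. Within the core, medians were −0.33 and −0.29 for the alpha ring and −0.31 and −0.21 for the beta ring. Within the regulatory particle, they were −0.45 and −0.41 for the base and −0.61 and −0.25 for the lid. At an unadjusted p under 0.05, limma had 9 of the 14 (64.3%) lower in the regulatory particle and 6 of the 13 (46.2%) in the core particle. The share was 13.9% over all genes and 22.1% in the brightest of 10 signal classes. The genes of each particle overlapped widely in their changes, from −0.52 (PSMB7) to 0.32 (PSMB5) in the core and from −0.72 (PSMD3) to −0.03 (PSMD12) in the regulatory particle, and the difference between particles was not tested. Without the first siIGF2R array of BOKU, the medians in this line were −0.40 for the regulatory particle and −0.20 for the core particle.

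Genes of like signal were also lower on average, by a smaller amount. Of the 29 genes, 19 were in the brightest of 10 equal classes by mean signal and 6 in the next. The median change in the brightest class was −0.12 in both lines, and 52.1% of its 896 genes were lower in both. In this class, 22.1% had an unadjusted p under 0.05 with a lower signal, against 51.7% of the subunits. When the median change of its own class was subtracted from each gene, the subunits had medians of −0.24 (BOKU) and −0.15 (SKG-I), and 21 of the 29 remained below 0 in both lines. The number with an unadjusted limma p under 0.05 and a lower value was then 7 (24.1%), against 13.8% of all genes. The core particle then had −0.20 and −0.14 and the regulatory particle −0.44 and −0.23. Quantile normalization gave similar medians over the subunits, −0.23 and −0.18.

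**Figure D3:**
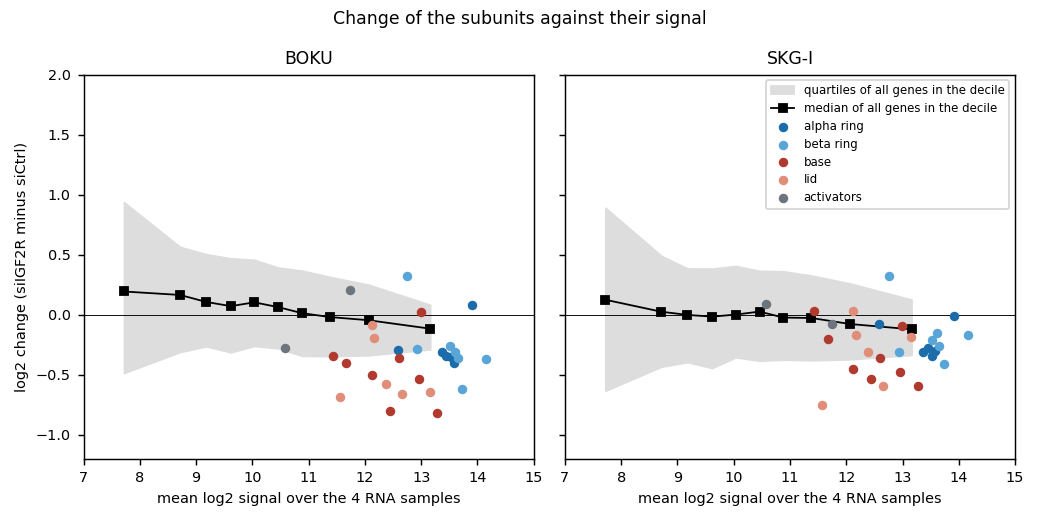
The x axis is the mean log2 signal over the 4 RNA samples and the y axis the log2 change in BOKU (left) and SKG-I (right), with a coloured point for each subunit. Black squares are medians and the grey band is the range from the 25th to the 75th percentile over all genes in each of 10 signal classes, and most subunits lie at the right, below the median of −0.12 of the brightest class.

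Probe sets of the same subunit mostly agreed in sign. The 29 genes had 44 measured probe sets, of which 35 were lower in both lines. Several measured probe sets were available for 11 genes, and 14 of the 15 further probe sets had the average sign of the representing one, the exception being that of PSMB2. PSMA2 had a larger decrease on its other probe set (−0.70 and −0.63) than on the representing one (−0.35 and −0.28).

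The same fit compared the cell lines, averaged over both siRNAs. In all, 5 of 29 genes (17.2%) were called higher in SKG-I than in BOKU, against 24.1% of all genes, and 2 (6.90%) were called lower, against 21.9%. PSME1 was 1.98-fold higher in SKG-I (adjusted p = 0.0086 from limma), PSMA5 and PSMB2 were 1.50-fold higher (0.0254 and 0.0141), PSMC2 was 1.48-fold higher (0.0208) and PSMB5 1.36-fold higher (0.0462). PSME3 was 1.87-fold lower (0.0171) and PSMC1 1.65-fold lower (0.0118). All 29 changes between lines lay between −0.90 and 0.98. Each line is compared here by 2 RNA samples that differ in siRNA.

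Genes that work with the proteasome did not share one direction. The immunoproteasome subunits, which replace the catalytic beta subunits after interferon, are PSMB8 for PSMB5, PSMB9 for PSMB6 and PSMB10 for PSMB7. PSMB8 had 1263 and 1587 against 2666 and 2799 in BOKU, and 389 and 411 against 1800 and 1649 in SKG-I. Its siIGF2R arrays were higher without overlap, with changes of 0.95 and 2.11, but the adjusted p was 0.0554 from limma. The threshold was passed in 9 of 21 alternative settings, including both that count arrays of the same RNA as samples. PSMB9 had 0.48 and 1.14 (adjusted p = 0.147) and PSMB10 −0.17 and 0.17 (adjusted p = 0.996). Limma thus called 0 of the 3, with 2 higher at an unadjusted p under 0.05, against 14.4% of all genes.

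Of the 9 measured assembly chaperones, limma called 2 (22.2%), both lower, while it called 2.35% of all genes lower. PAAF1, which binds the ATPase PSMC5 and holds base intermediates, fell in both lines, with log2 changes of −2.06 and −1.88 (limma adjusted p = 0.0221). PSMD10, also called gankyrin, which binds PSMC4 during base assembly, also fell, with −0.88 and −1.10 (limma adjusted p = 0.0331). PAAF1 was at least 2-fold lower in each line, and the study selected genes by a 2-fold rule on these same arrays. Its direction is therefore no independent evidence.

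PSMD9, another base chaperone, went the other way with 0.74 and 1.12 (adjusted p = 0.0603), and PSMD5 had 0.05 and −0.03. Of the core chaperones, PSMG1 had 0.89 and 0.27 (adjusted p = 0.153), PSMG2 −0.06 and −0.18, PSMG3 −0.23 and −0.29, PSMG4 0.39 and −0.11, and POMP −0.19 and −0.04. The 9 genes had medians of −0.06 (BOKU) and −0.11 (SKG-I). Of them, 5 (55.6%) were lower and 2 (22.2%) higher in both lines, against 35.7% of all genes each way.

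Over all genes, limma called 2.35% lower and 2.59% higher, and 13.9% and 14.4% at an unadjusted p under 0.05. Of the 7 measured further subunits and bound proteins, it called 0, also at that unadjusted threshold. Among them the deubiquitinases of the regulatory particle differed in sign, with UCHL5 at −0.42 and −0.34 and USP14 at 0.30 and 0.36. SEM1, a small lid subunit, had −0.23 and −0.38. Limma called 0 of the 3 measured ubiquitin genes and activating enzymes, also without adjustment. Of the 8 measured ubiquitin receptors and VCP partners it called 0. Without adjustment, 2 (25%) were lower and 1 (12.5%) was higher at p under 0.05. VCP, the ATPase that extracts ubiquitinated proteins from complexes and membranes, had −0.70 and −0.59 (adjusted p = 0.0646 from limma), and its cofactor UFD1 had −0.37 and −0.35. UBQLN1, a shuttle receptor, had 0.35 in both lines on the representing probe set. A further UBQLN1 probe set was lower in both (−0.21 and −0.13), and another had −0.02 and 0.22. UBB, a ubiquitin gene, had −0.13 and −0.15. Of the 4 measured genes of the NFE2L1 pathway limma called 0, with 1 higher at an unadjusted p under 0.05. NFE2L1 had 0.36 and −0.06, NFE2L2 −0.15 and −0.08, and SEL1L, of the ER degradation complex, 0.63 and 0.52 (adjusted p = 0.127). A further NFE2L1 probe set was lower in both lines (−0.09 and −0.65), and another had 0.41 and −0.09.

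As comparisons with other large complexes, the COP9 signalosome, which resembles the lid in its subunits, and the CCT chaperonin, which folds actin and tubulin, were followed in the same way. The 8 measured COP9 genes had medians of −0.12 (BOKU) and −0.33 (SKG-I). In both lines 6 (75%) were lower, against 35.7% of all genes and 75.9% of the 29 subunits. The largest change was in COPS7A (−0.81 and −0.97, adjusted p = 0.0592 from limma). The 7 measured CCT genes had medians of 0.21 in both lines, with 4 (57.1%) higher and 2 (28.6%) lower in both, against 35.7% of all genes each way. CCT8 had 0.81 and 0.54 (adjusted p = 0.0611) and CCT3 −0.47 and −0.30. Limma called 0 genes of either complex. At an unadjusted p under 0.05, 2 COP9 genes were lower, while 1 CCT gene was lower and 2 were higher. Over all genes, 13.9% were lower and 14.4% higher at this threshold. The differences between complexes were not tested.

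**Figure D4:**
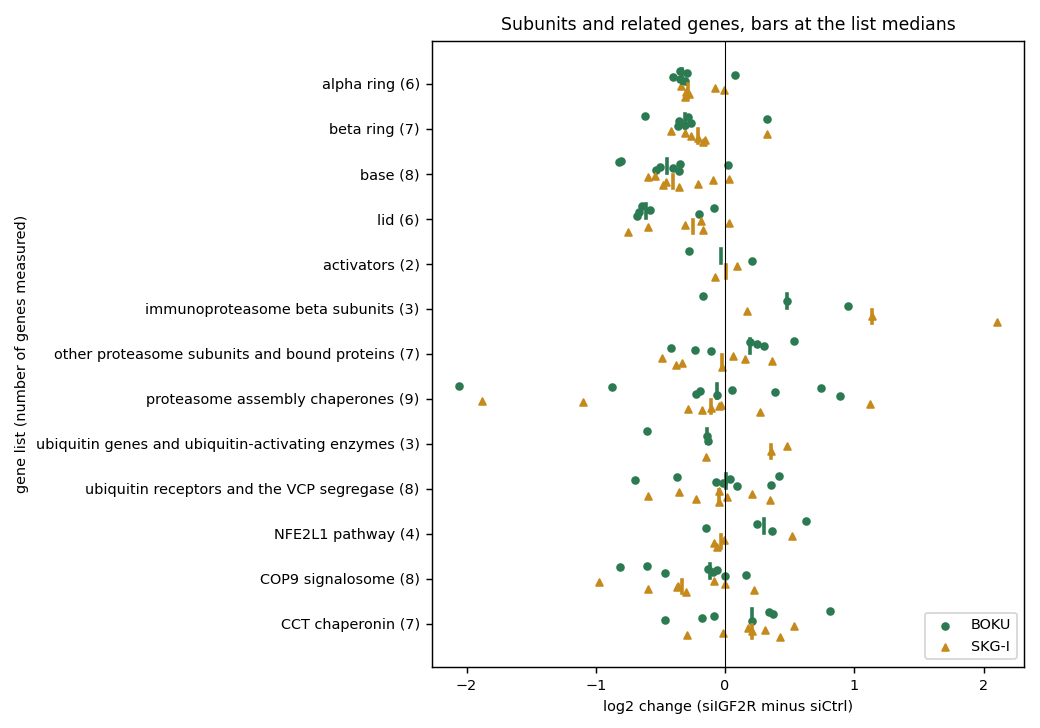
Each row is a gene list with its number of measured genes, each point is a gene (circles BOKU, triangles SKG-I), and vertical bars are the list medians of the log2 change on the x axis. The rows of the core and regulatory particle lie mostly left of 0, with medians from −0.61 to −0.21. The row of the COP9 signalosome also lies mostly left, with medians of −0.12 (BOKU) and −0.33 (SKG-I). The other related lists spread to both sides, with PAAF1 at −2.06 and PSMB8 at 2.11 as the outermost points.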

How the data were processed

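Total RNA of BOKU and SKG-I cells was hybridized by the authors to Affymetrix U133 Plus arrays that cover the human genome. The deposited values are MAS5 signals, an intensity on a linear scale for each of 54675 probe sets, after background subtraction and summary over probes. All 8 deposited columns have a 2% trimmed mean of 500, which differs from the scaling that the methods describe, and none goes below 1. The scaling makes arrays comparable only if most genes are equal in total.

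Signals were used on a log2 scale without a floor or an added constant. The 62 control probe sets were removed, those that reached 500 on 1 array or more were kept (16517, 30.2%), and duplicate arrays were averaged. A single gene was annotated for 14544 of them, several genes for 765 and no gene for 1208. limma 3.58.1 in R 4.3.3 fitted the cell line and the siRNA with a variance trend, and p values were adjusted by Benjamini-Hochberg over all probe sets. The fit had 1 residual degree of freedom per probe set and 4.82 from the prior. Nothing states that the RNA samples came from more than 1 culture, so p values measure only the spread between these samples. The number of arrays limits the precision. The test was checked on simulated data.

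The shift of genes of like signal was taken as the median change in 10 classes by mean signal. All measured subunits may be named, with the signals of all arrays for the catalytic subunits, the activators and the 8 genes with the largest mean change. Related genes were named when called and otherwise up to 3 per list by the smallest p, except that further assembly chaperones and the related genes with opposite changes in the lines were named after their values were seen. The subunits and the lists were chosen with earlier results of these data known. Alternatives covered the filter, normalization, a floor, a constant, the averaging, the variance model, the blocks, the methods' t-test, the choice of probe set and leaving out each array. No protein sequences or genome were used here. Figures were drawn with matplotlib 3.10.9.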

Additional observations from a re-analysis of the deposited data

Results flagged for a closer look

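In 6 genes all siIGF2R arrays of one line lay above its siCtrl arrays while all of the other line lay below. Values are the log2 change in SKG-I minus that in BOKU, and in all 6 genes the difference was not tested, since each line has 1 RNA sample per siRNA. Among the subunits this held for PSME3, with a difference of 0.368 on the representing probe set, although its further probe sets were lower in both lines. Among related genes, PSMB10 had a difference of 0.345 and NFE2L1 of −0.42, although a further NFE2L1 probe set was lower in both lines. PSME4, the large nuclear activator of the core particle, had a difference of −0.683, from changes of 0.19 in BOKU and −0.49 in SKG-I. Of the ubiquitin-activating enzymes, UBA1 had 0.498 and UBA6 had 1.08, the widest gap, from signals of 6814 and 6000 against 4458 and 3957 in BOKU and 1850 and 1797 against 2543 and 2526 in SKG-I.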

How the results depend on the processing

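The number of subunits called lower was 0 in the analysis reported. It was 1 (PSMD2) with a filter of 500 on all arrays (4.56% of all genes were lower), a floor of 100 (2.41%) or a constant of 64 (3.83%). When 1 array was left out, it was 0 to 3. The 3 were PSMD2, PSMD4 and PSMD8, called without the first siCtrl array of BOKU (5.16% of all genes) or without its second siIGF2R array (4.62%). With the 8 arrays as separate samples, it was 12 with an estimated correlation of duplicates (15.4% of all genes were lower) and 20 with a replicate block on the array number (23.3%), where 1 subunit, PSMB5, was called higher. Both count arrays of the same RNA as samples. Deviations of equally numbered arrays correlated at −0.00608 to 0.126 between RNA samples. The highest values were those within a line, 0.126 in BOKU and 0.0631 in SKG-I. Whether the number pairs samples was not tested. Subunits lower at an unadjusted p under 0.05 numbered 15 as reported, against 13.9% of all genes. They numbered 8 without the first siIGF2R array of BOKU (12.6% of all genes) and 8 without a filter (8.97%). With quantile normalization or with the change of like genes subtracted they numbered 7 (14.2% and 13.8% of all genes). The count was 4 (13.8%) without the variance trend, against 10.5%, and 0 without the block for the line, against 2.15%. With probe sets of 1 transcript it was 9 of 18, against 13.2%. Otherwise it was 10 to 22, the 22 with the replicate block (27.3% of all genes).

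The median over the subunits was −0.20 with quantile normalization and −0.19 after subtraction of the change of genes of like signal, and that of the core particle −0.19 and −0.18. Leaving out 1 array gave −0.31 to −0.21 for the core particle. With only probe sets that match 1 transcript, 18 subunits were measured and 14 were lower in both lines. The share of all genes lower in both lines was not computed for that setting. Subunits called higher in SKG-I numbered 1 without the variance trend, 8 with the replicate block and 3 with probe sets of 1 transcript. Those called lower numbered 4 with median scaling or the constant, 1 without the trend, 5 with the estimated correlation, 9 with the replicate block and 0 with probe sets of 1 transcript. The share of all genes called between the lines was not computed under these settings, so these counts cannot be set against it. IGF2R, PAAF1 and PSMD10 were not called without the trend (adjusted p = 0.102, 0.102 and 0.123 from limma) or without the block for the line (adjusted p = 1). Under each of these settings limma called 0 of all 8961 genes, so this is not particular to the genes named. PSMD10 was also not called with the mean of its probe sets (adjusted p = 0.0505 from limma). PSMC6 turned to 0.0597 with quantile normalization and 0.0865 after subtraction of the change of like genes, and NFE2L2 to 0.0059 after the latter. The alternatives that passed the threshold were 9 of 21 for PSMB8, 7 of 22 for PSMD9, 7 of 23 for COPS7A, 9 of 22 for CCT8, 5 of 23 for VCP and 9 of 23 for PSMD2. Each of these counts includes both settings that take arrays of the same RNA as samples. The causes were not tested.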
